A study of Mus musculus with 4 samples.

Results

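Genes named for their discovery in the testis or in sperm (the Spata, Spag, Spem, Tex, Tsga and Tssk families) were followed in RNA from mouse spermatozoa. They were taken by a rule on names, which was set with earlier results of these data known. Every listed gene whose symbol begins with one of these stems (for Tex, followed by a digit) was taken. This gave 49 of the 8699 genes listed in all 4 libraries. The gene name table holds 93 such symbols, and the 44 without a line in the tables were not analysed here. Sperm came from the cauda of the epididymis of adult C57BL/6J males, an inbred strain, at about 11 weeks of age. One group of 2 libraries was from mice that received saline and the other 2 were from mice that received nicotine, the main alkaloid of tobacco. No allele or other agent is given in the labels, which state neither dose nor route of the nicotine and no purification step after the sperm were released. The labels do not say if different mice gave the libraries of one treatment, so p-values measure the spread between these libraries only, which may be technical.

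The shared name stems do not make a family. Spata stands for spermatogenesis associated, Spag for sperm associated antigen, Spem for spermatid maturation, Tex for testis expressed, Tsga for testis specific gene antigen and Tssk for testis-specific serine kinase. Mature sperm make little or no new RNA, and what they carry is largely left over from the spermatids, the haploid cells that build the tail, the acrosome and the compact nucleus. Some genes with such names are nevertheless active in many tissues. The 49 genes were therefore placed by known role, likewise with earlier results of these data known. Of them, 18 belong to the sperm tail, its midpiece and the head-tail junction, 4 are Tssk kinases and 14 are other germ cell genes. Another 12 act in many cell types, while Tex22 was placed in no group. For Spata1 and Spata24, both in the widely expressed group, the placing is the least certain.

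The promoters of 44 of the 49 genes were found in a RefSeq table (build GRCm38.p6, from 250 bases before to 50 bases after the annotated start). They were searched on both strands for 2 elements known from testis gene control. One was the cAMP response element TGACGTCA, bound by the CREM activator of spermatids. The other was the X-box bound by RFX factors, as its half-site GTTGCC or GTTACC and as a longer form, GTTGCC followed directly by ATGG. The response element was in 3 of the 44 promoters (6.82%, against 2.03% of the promoters of 27025 genes), and the long X-box was in 2 (4.55% against 0.633%). Either half-site was in 14 (31.8% against 20.8%). A match describes the letters only. The windows of Tex33, Spag4 and Spag6l are shown because these 3 genes hold one of these elements wholly upstream of the start and are also among those that were higher with nicotine. The response element of Spata7, which also rose, is not wholly upstream. Nor is the long X-box of Spata33, a gene that also did not pass the test. Capitals mark the element, with up to 30 bases on either side as far as the start, where each window stops, and each sequence is written on the strand of its gene.
Tex33 (chr15:78395913-78395982, minus strand): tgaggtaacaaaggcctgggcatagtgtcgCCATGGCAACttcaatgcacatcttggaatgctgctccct
Spag4 (chr2:156065146-156065212, plus strand): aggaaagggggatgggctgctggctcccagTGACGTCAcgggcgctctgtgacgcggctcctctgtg
Spag6l (chr16:16829364-16829402, minus strand): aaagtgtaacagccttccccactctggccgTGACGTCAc
In Tex33 the long X-box lies on the opposite strand and therefore reads as its reverse complement, ending 31 bases before the start. The response element ends 30 bases before the start in Spag4 and 2 bases before it in Spag6l.

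Listed genes had 3999449 reads in saline replicate 1, 3856022 in saline replicate 2, 3798794 in nicotine replicate 1 and 5216745 in nicotine replicate 2. From 74.9% to 90.6% of these reads were on 2 genes, Lars2 and Gm42418, with the highest share in nicotine replicate 1. Only 358477 reads were left for all other genes there, against 931578 to 1176304 in the other libraries. Markers of spermatids and sperm made up 1.78% and 1.51% of the reads outside this pair of genes in the saline libraries, against 4.99% and 4.79% in the nicotine libraries (replicate 1 first, here and throughout); all 15 marker genes were listed, and they include the member Spata18. Connective tissue and vessel markers (16 of 18 listed) held 2.90% and 1.43% in saline and 0.221% and 0.703% in nicotine, with Lum at 0 reads in saline replicate 2 and nicotine replicate 1. They include the smooth muscle genes Myh11, Acta2, Tagln and Des, which held many of these reads. Myh11 alone had 8732 of 29020 and 5075 of 13339 in saline, and 177 of 794 and 3541 of 8265 in nicotine. Leukocyte markers (15 of 20 listed) held 0.362% and 0.679% against 0.135% and 0.492%, with Cd14 and Cd68 at 0 reads in nicotine replicate 1. Most of these reads were on Cd52 alone, with 2254 of 3627 and 4880 of 6327 in saline, and 346 of 485 and 5262 of 5791 in nicotine. In the fit described below, 12 of the 15 had a log2 fold change (nicotine over saline) under 0 and 3, among them Cd52, above 0. Of all tested genes 44.5% were above 0. Of the 14 tested connective tissue and vessel markers, 13 were under 0 and 1, Vwf, was above 0. Epididymal epithelium markers (10 of 18 listed) held 0.822% and 2.57% against 0.566% and 2.08%, with Spink11 at 0 reads in nicotine replicate 1. Most of these reads were on Crisp1, with 4383 of 8240 and 12228 of 23910 in saline, and 1284 of 2030 and 15877 of 24471 in nicotine. Of the 9 tested, 6 had a log2 fold change under 0 and 3 above 0. Erythroid markers (5 of 7 listed) ranged from 0.0332% to 0.199%. Sperm markers thus took a higher share in both nicotine libraries than in either saline library. The connective tissue and vessel list, with its smooth muscle genes, took a lower one. Their part in the results below was not tested. Fewer cells of a type and less RNA per cell cannot be told apart in such bulk libraries.

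Together the 49 genes had 4428 and 3429 reads with saline, 4263 and 12390 with nicotine, and none was at 0 reads in any library. Of all reads this was 0.111% (exact Clopper-Pearson 95% interval 0.107 to 0.114%), 0.0889% (0.0860 to 0.0920%), 0.112% (0.109 to 0.116%) and 0.238% (0.233 to 0.242%), in the same order. On this scale nicotine replicate 1 was level with saline replicate 1. Of the reads outside Lars2 and Gm42418 the shares were 0.442% (0.429 to 0.455%), 0.368% (0.356 to 0.381%), 1.19% (1.15 to 1.23%) and 1.05% (1.03 to 1.07%). Here both nicotine libraries were above both saline libraries. The intervals cover counting error only. Spata18 alone had 852 and 697 of these reads with saline, and 1140 and 3243 with nicotine.

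**Figure D1:**
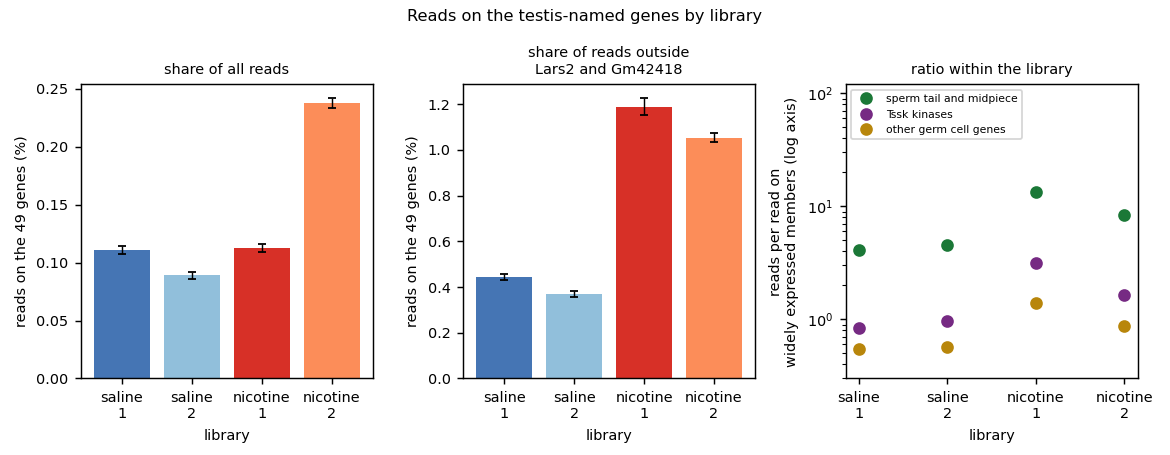
Reads on the 49 testis-named genes in the 4 libraries, as a percent of all reads (left) and of reads outside Lars2 and Gm42418 (middle), with bars from 0 and exact 95% intervals of counting error. The right panel gives reads on 3 role groups per read on the widely expressed members of the same library on a log axis, where the sperm tail group had 4.12 and 4.55 in saline and 13.3 and 8.36 in nicotine.

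The design sets sperm of nicotine-exposed males beside those of males given saline. RNAs of 13 of 16 tested sperm tail members, 3 of 4 Tssk kinases, 5 of 10 other germ cell members and 2 of 12 widely expressed members were higher in the nicotine libraries. Whether the role groups differed from each other was not tested. By edgeR's quasi-likelihood test over all genes, with trimmed mean of M values (TMM) scaling and an adjusted p under 0.05, 23 of 42 tested members rose and 0 fell. Of all 8375 tested genes, 8.27% were called higher and 0.931% lower. An unadjusted p under 0.05 was reached by 32 of the 42, against 23.7% of all genes. The median log2 fold change of the tested members was 2.0, where the median of all tested genes was -0.14, and 39 of 42 values were above 0, against 44.5% of all genes. In CPM (reads scaled by the TMM library size), both nicotine libraries lay above both saline libraries for 32 of the 42 members, against 27.4% of all tested genes.

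Several of these counts depended on a few choices. The filter on low counts lets a gene pass through the nicotine libraries alone, and 7 of the 42 reached its level in both nicotine libraries but not in both saline libraries (Spata1, Tex48, Tex35, Spata31d1a, Tex14, Tex33 and Spag4), of which 6 were called. Among the 34 members that reached the filter level in both saline libraries, 17 were called, against 7.09% of the 7911 tested genes that did so. With no filter, 20 of 49 were called, against 7.59% of all genes. With library totals in place of TMM 0 of 42 members passed, and 0% of all genes were called higher. An unadjusted p under 0.05 was then reached by 0 members, against 10.6% of all genes. With totals outside Lars2 and Gm42418 likewise 0 members passed (23 at an unadjusted p under 0.05, against 30.1% of all genes). The median of all genes was then -1.28 and -0.77, and that of the members 0.60 and 1.26, and the distance between both medians was 1.88 and 2.03, against 2.14 with TMM. A change of scaling moves all genes nearly alike, so this distance says little about the lost calls. Without saline replicate 1 or without saline replicate 2, 0 of 48 members passed (0.152% and 0% of all genes were called higher), while 26 and 18 had an unadjusted p under 0.05 (against 12.3% and 11.2% of all genes). With either nicotine library left out, 29 members passed, of 48 without replicate 1 and of 42 without replicate 2, against 10.8% and 17.8% of all genes. A lone library is then assumed to vary like the pair of the other group. The other settings called 24 of 49 members with DESeq2 (10.4% of all genes), 23 of 42 with limma-voom (9.15%) and 22 with median-of-ratios scaling (8.75%). Genes to which DESeq2 gave no adjusted p, among them Spata32 and Tex22, count there as not called. With upper-quartile scaling 16 were called (6.44%), at a mean count of 20 or more 19 of 34 (9.6%), and with the replicate number as a block 28 of 42 (12.9%).

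**Figure D2:**
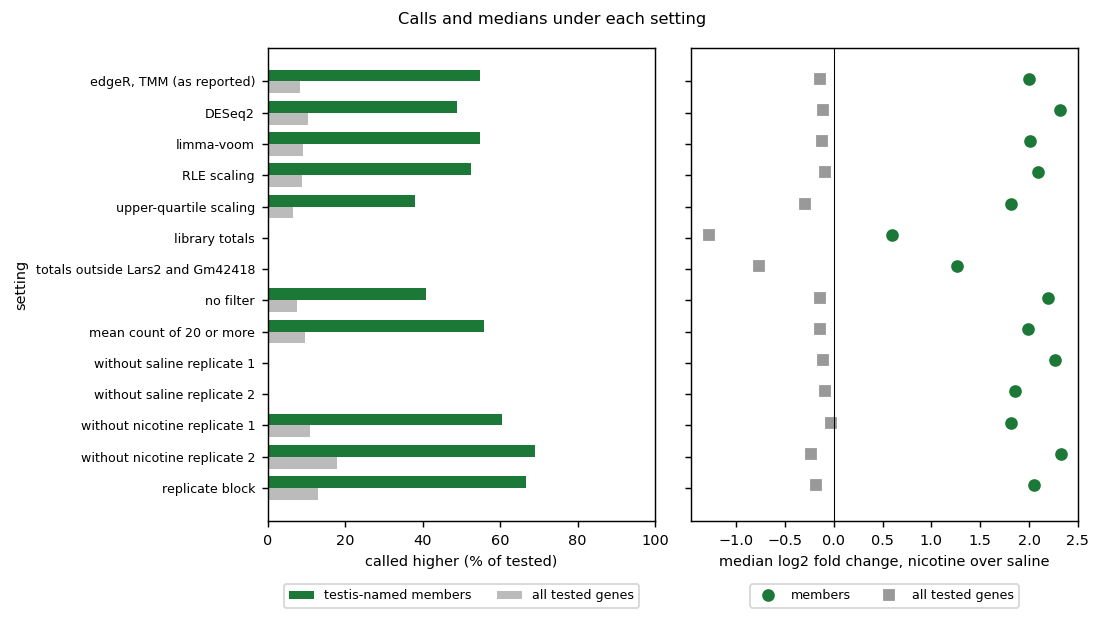
Left, percent of tested members (green) and of all tested genes (grey) called higher in nicotine under each setting, with bars from 0. Right, median log2 fold change of members and of all tested genes, where the distance between the 2 medians was 2.14 as reported and lay between 1.84 and 2.56 over the alternatives, a distance that a change of scaling alone hardly moves.

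A measure that no scaling can move is the rank of a gene within its own library. Ranked by RPKM (reads corrected for gene length and library total) among all 8699 genes, the median sperm tail member stood at percentile 68.4 and 71.8 with saline, against 94.1 and 92.9 with nicotine. The Tssk kinases went from 94.0 and 92.7 to 98.1 and 97.2. The other germ cell genes went from 50.8 and 24.7 to 78.1 and 74.1, and the widely expressed members from 51.1 and 43.6 to 59.8 and 67.6. Each of the 4 group medians was thus higher in both nicotine libraries than in either saline library. The share of all listed genes that ranked higher in this way is not given here, so these medians have no background beside them. In the widely expressed group, ranks in nicotine replicate 1 rest on few reads for several members, such as 1 for Tex10 and 3 each for Spag7 and Tex264. Reads on tail members per read on widely expressed members of the same library were 4.12 and 4.55 in saline and 13.3 and 8.36 in nicotine. Without Spata18 this ratio was 2.87 and 3.11 against 8.22 and 5.24. For the kinases it was 0.837 and 0.969 against 3.19 and 1.66, and for the other germ cell genes 0.551 and 0.571 against 1.39 and 0.873. In all of these ratios nicotine replicate 1 was the highest library and both saline libraries were the lowest. No test is given for them, since with 2 libraries against 2 an exact two-sided permutation test cannot go below p = 0.333.

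**Figure D3:**
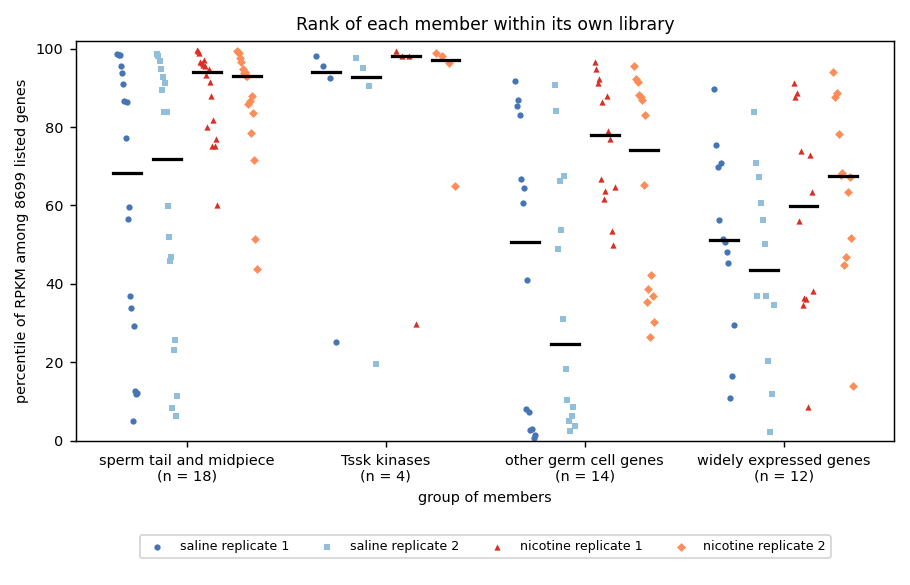
Percentile of each member's RPKM among the 8699 listed genes of its own library, by role group, with 1 point per gene and a black line at the median. The median sperm tail member moved from 68.4 and 71.8 in the saline libraries to 94.1 and 92.9 in the nicotine libraries.

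Of the 16 tested genes of the sperm tail, midpiece and head-tail junction, 13 rose and 0 fell, against 8.27% and 0.931% of all tested genes, with a median log2 fold change of 2.34. Without Tex33 and Spag4, which were below the filter level in at least 1 saline library, 11 of 14 rose (7.09% of all such genes). In CPM all 16 were higher in both nicotine libraries than in either saline library, against 27.4% of all tested genes, but in the deposited RPKM only 8 of the 16 were, against 6.99%. The most abundant per length was Spata18 (ENSMUSG00000029155), a protein of mitochondrial quality control also known as Mieap. Its RPKM was 101 and 85.8 in saline and 142 and 295 in nicotine, at percentiles 98.7, 98.5, 99.5 and 99.5. In scaled CPM it had 127 and 110 with saline and 925 and 559 with nicotine, a rise of 2.65 ± 0.56 (log2 fold change ± standard error, adjusted p = 0.0329, edgeR, n = 2 per group). Both nicotine values were above both saline values, and replicate 1 was the higher.

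Spem1 (ENSMUSG00000041165), needed in mouse spermatids to shed their cytoplasm, had 47.3 and 23.8 CPM in saline and 157 and 111 in nicotine. Saline replicate 1 was well above saline replicate 2, but the groups did not overlap. The rise was 1.91 ± 0.53 and just inside the threshold (adjusted p = 0.0499, edgeR), and it was called under 5 of the 13 alternatives. Spem2 (ENSMUSG00000044084), which like Spem1 lies on chromosome 11, had 72.8 and 62.4 CPM in saline against 443 and 244 in nicotine. It rose by 2.34 ± 0.54 (adjusted p = 0.0332). Per length, Spem2 and Spem1 followed Spata18 in the tail group, with RPKM from 62.6 to 165 and from 37.6 to 119 over the 4 libraries.

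The central apparatus of the tail, the pair of microtubules that runs along its middle and carries projections, was represented by Spag16, Spag17 and Spag6l, and all 3 rose. Spag17 (ENSMUSG00000027867), a scaffold of a central projection, had 7.59 and 5.67 CPM with saline and 44.6 and 45.5 with nicotine. The nicotine libraries were nearly equal here in CPM, though not in RPKM (1.71 and 5.96), and the rise was 2.76 ± 0.49 (adjusted p = 0.0329). Spag16 (ENSMUSG00000053153), another central apparatus protein, had 34.5 and 29.0 CPM in saline and 306 and 112 in nicotine, a rise of 2.71 ± 0.60 (adjusted p = 0.0329). Nicotine replicate 1 was far above replicate 2, and without replicate 1 the log2 fold change was 1.84. Spag6l (ENSMUSG00000022783), the axonemal copy of mouse Spag6, had 2.38 and 3.31 CPM in saline against 16.2 and 13.3 in nicotine, with a rise of 2.35 ± 0.53 (adjusted p = 0.0329). The reads of Spag17 are less certain, since 13.5% of its 50-base windows also occur in other transcripts, among them Wdr3 on the opposite strand. Wdr3 itself had 4.91 and 3.94 CPM in saline and 7.30 and 1.55 in nicotine, so its groups overlapped.

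Spata17 (ENSMUSG00000026611), a calmodulin-binding protein with IQ motifs, had the largest log2 fold change of the tested members. It had 5.36 and 4.25 CPM in saline and 69.0 and 18.1 in nicotine, a rise of 3.13 ± 0.67 (adjusted p = 0.0329). Much of the size came from nicotine replicate 1, without which the log2 fold change was 1.93. Tex33 (ENSMUSG00000062154), whose promoter has the long X-box shown above, had 9 and 10 reads with saline against 20 and 48 with nicotine, or 1.34 and 1.58 against 16.2 and 8.28 CPM. It rose by 2.98 ± 0.63 (adjusted p = 0.0329). Spag4 (ENSMUSG00000038180), a SUN domain protein that ties the tail to the sperm nucleus, had 2.38 and 1.42 CPM in saline and 18.7 and 7.24 in nicotine. It rose by 2.65 ± 0.67 (adjusted p = 0.0374), on 16 and 9 reads against 23 and 42.

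Of the other tail members, Tsga10, a protein of the fibrous and mitochondrial sheath region, rose by 2.42 ± 0.54 (adjusted p = 0.0329), from 10.7 and 13.9 to 90.9 and 42.8 CPM. Spata6, which is needed in the mouse to build the piece that connects head and tail, rose by 1.75 ± 0.47 (adjusted p = 0.0449), from 28.4 and 24.1 to 98.2 and 79.2 CPM. Spata3 and Spata4 also rose, by 2.02 ± 0.50 (adjusted p = 0.0357) and 2.06 ± 0.57 (adjusted p = 0.0484). Spata4 was not called with upper-quartile scaling (adjusted p = 0.0660) or without a filter (adjusted p = 0.0536), and Spata6 not with upper-quartile scaling (adjusted p = 0.0569). Of the 50-base windows of Spata4, 6.75% also occur in transcripts of another gene. The 3 tested tail members that did not pass were Spata20, a thioredoxin-like protein of spermatids, with 1.62 ± 0.47 (adjusted p = 0.0577), Spata33, which anchors calcineurin at mouse sperm mitochondria, with 1.55 ± 0.53 (adjusted p = 0.0961), and Spag1, an assembly factor of dynein arms, with 1.67 ± 0.64 (adjusted p = 0.136). In Spata20, unlike most tail members, nicotine replicate 2 was above replicate 1, with 142 against 114 CPM, while saline had 44.5 and 38.8.

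**Figure D4:**
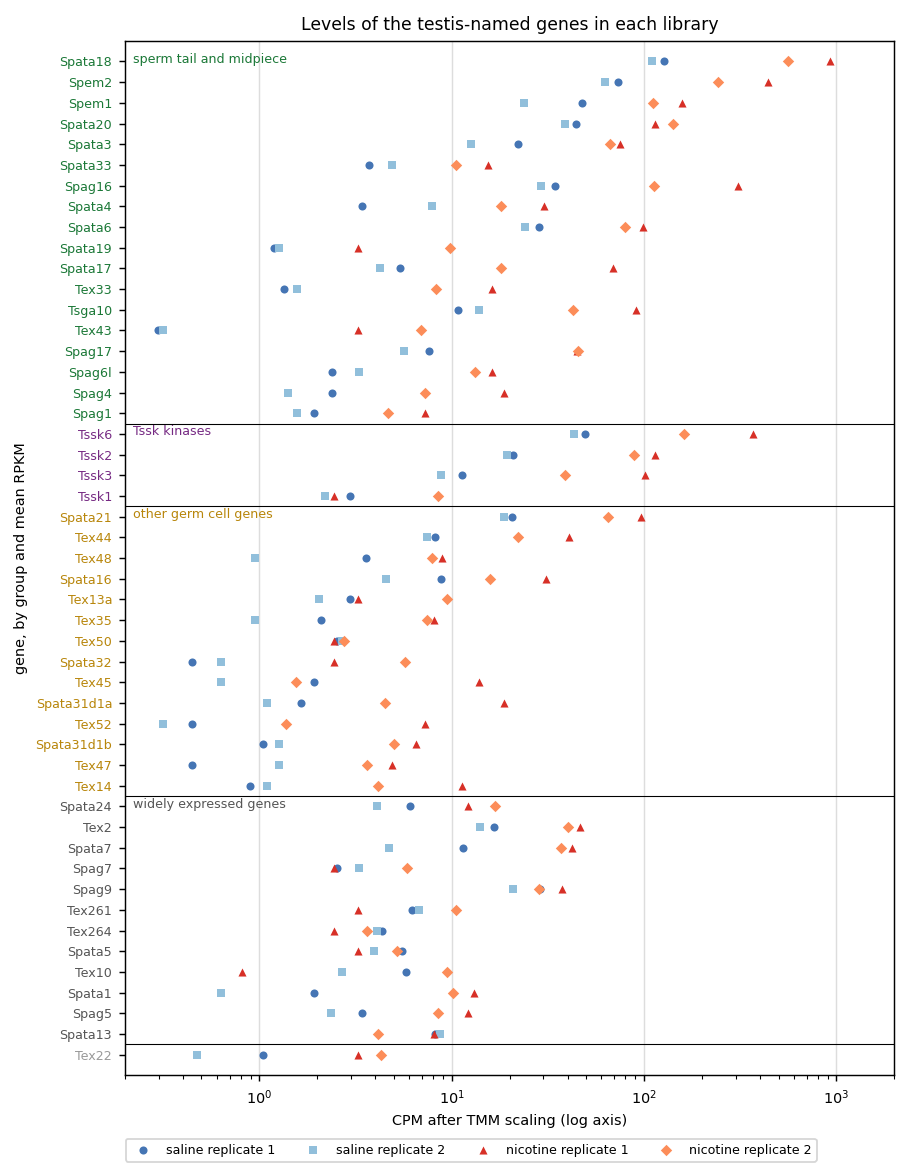
Level of each of the 49 genes in each library, in CPM after TMM scaling on a log axis, grouped by role and ordered by mean RPKM within a group. In the sperm tail group the nicotine points lie to the right of the saline points, from Spata18 (127 and 110 against 925 and 559 CPM) down to Spag1 (1.94 and 1.58 against 7.30 and 4.66 CPM).

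The Tssk genes encode kinases that act in spermatids, and 3 of the 4 listed rose, against 8.27% of all tested genes. All 4 reached the filter level in both saline libraries. Tssk6 (ENSMUSG00000047654), which in the mouse is needed for the exchange of histones for protamines, had 49.4 and 43.3 CPM in saline and 368 and 161 in nicotine, a rise of 2.51 ± 0.57 (adjusted p = 0.0329). It was the most abundant kinase per length, with 62.2 and 53.4 RPKM in saline and 89.3 and 134 in nicotine. Of its 50-base windows 25.3% also occur in Ndufa13, a complex I gene on the opposite strand, and no strand setting of the counting is given. Ndufa13 was lower in both nicotine libraries, with 12.2 and 11.8 CPM against 5.68 and 9.66, a log2 fold change of -0.57 ± 0.50 that did not pass (adjusted p = 0.534).

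Tssk2 (ENSMUSG00000045521) had 20.8 and 19.4 CPM in saline and 114 and 89.0 in nicotine, a rise of 2.33 ± 0.48 (adjusted p = 0.0329). Tssk3 (ENSMUSG00000000411), which acts late in mouse spermatid development, had 11.3 and 8.82 CPM in saline and 101 and 38.6 in nicotine, with a rise of 2.77 ± 0.58 (adjusted p = 0.0329). Both had non-overlapping groups, with the nicotine libraries closer to each other in Tssk2. Tssk1 (ENSMUSG00000041566), the neighbour and close relative of Tssk2 on chromosome 16, had 20 and 14 reads with saline against 3 and 49 with nicotine. That is 2.98 and 2.21 CPM against 2.43 and 8.45, so its groups overlapped, and its log2 fold change of 1.24 ± 0.66 did not pass (adjusted p = 0.286). Tssk1 and Tssk2 share 50-base windows (9.34% of those of Tssk2), so part of their reads could be split between them. Tssk1 also overlaps Dgcr2 on the opposite strand. Whether Tssk1 and Tssk2 differed in their response was not tested.

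Among the 10 tested germ cell genes outside these groups 5 rose and 0 fell, against 8.27% and 0.931% of all tested genes, with a median log2 fold change of 2.0. Of these 10, 5 were below the filter level in at least 1 saline library (Tex48, Tex35, Tex45, Spata31d1a and Tex14). Among the other 5, 2 rose, against 7.09% of all such genes. Spata21 (ENSMUSG00000045004), a calcium-binding EF-hand protein, had 20.7 and 18.6 CPM in saline and 96.6 and 65.2 in nicotine, which is a rise of 2.03 ± 0.48 (adjusted p = 0.0340). Tex44 (ENSMUSG00000036574) had 8.19 and 7.40 against 40.6 and 22.1 CPM, a rise of 1.97 ± 0.51 (adjusted p = 0.0399) that was not called with upper-quartile scaling (adjusted p = 0.0531). In both genes the saline libraries were nearly equal and well below the nicotine libraries. Tex48 (ENSMUSG00000058935) had 3.57 and 0.945 CPM in saline and 8.93 and 7.93 in nicotine, so its saline libraries were far apart. Its log2 fold change of 1.86 ± 0.68 did not pass (adjusted p = 0.121), and the reason was not tested.

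Tex14 (ENSMUSG00000010342), which keeps open the bridges between dividing germ cells, had 6 and 7 reads with saline against 14 and 24 with nicotine. In CPM this was 0.893 and 1.10 against 11.4 and 4.14, a rise of 2.78 ± 0.74 (adjusted p = 0.0445) that did not pass without nicotine replicate 1 (2.05, adjusted p = 0.0849). Spata31d1a (ENSMUSG00000050876) had 11 and 7 reads with saline against 23 and 26 with nicotine, or 1.64 and 1.10 against 18.7 and 4.48 CPM. It rose by 2.90 ± 0.78 (adjusted p = 0.0456), and did not pass when nicotine replicate 1 was left out (1.71, adjusted p = 0.127). Its values are uncertain, since 19.8% of its 50-base windows also occur elsewhere, among others in its copy Spata31d1b. Tex35 rose by 2.32 ± 0.64 (adjusted p = 0.0491), on 14 and 6 reads with saline against 10 and 43 with nicotine. It was called under 5 of the 13 alternatives, and not with DESeq2 (adjusted p = 0.0554). Spata31d1a was called under 5 and Tex14 under 4 of them, neither with limma-voom (adjusted p = 0.116 and 0.106).

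The other 4 tested members of this group did not pass. Spata16, a Golgi protein linked in humans to sperm without an acrosome, had 8.78 and 4.57 CPM in saline and 30.8 and 15.9 in nicotine (log2 fold change 1.76 ± 0.56, adjusted p = 0.0767). Tex13a, on the X chromosome, had 2.98 and 2.05 against 3.25 and 9.49 CPM (1.48 ± 0.64, adjusted p = 0.191). Tex45 had 1.94 and 0.630 against 13.8 and 1.55 CPM, with only nicotine replicate 1 above both saline libraries (2.26 ± 1.02, adjusted p = 0.211). Tex50 was the exception in the group: it had 2.53 and 2.68 CPM in saline and 2.43 and 2.76 in nicotine, a log2 fold change of 0.03 ± 0.64 (adjusted p = 0.985), on 17, 17, 3 and 16 reads.

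**Figure D5:**
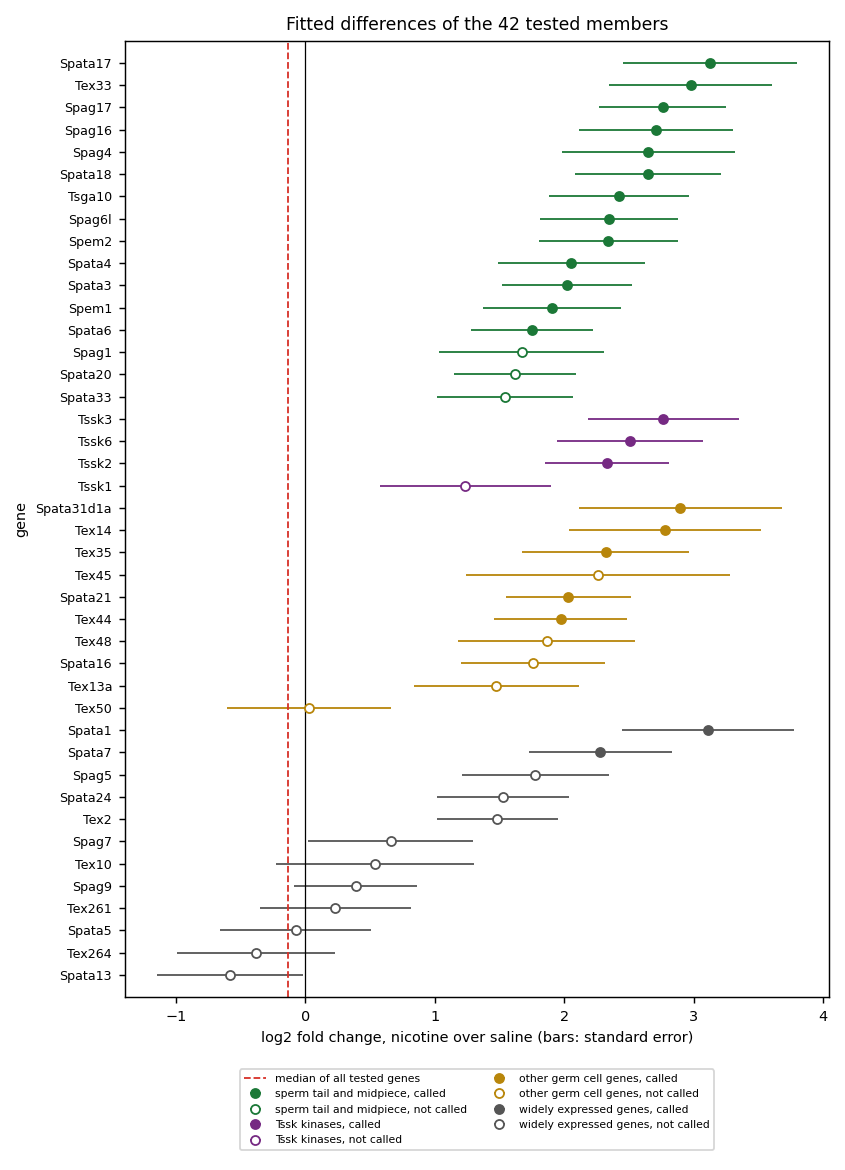
Log2 fold change of nicotine over saline with its standard error for the 42 tested members, filled where called by edgeR over all genes, with the median of all tested genes (-0.14) as a dashed line. All 16 tail members lie at 1.55 or above, while the 12 widely expressed members run from -0.58 to 3.11.

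Of the 12 widely expressed members 2 rose and 0 fell, against 8.27% and 0.931% of all tested genes, with a median log2 fold change of 0.60 and values from -0.58 to 3.11. One of the 2, Spata1, was below the filter level in at least 1 saline library, and without it 1 of 11 rose, near the 7.09% of all such genes. Spata1 (ENSMUSG00000028188) had 13 and 4 reads with saline against 16 and 59 with nicotine, or 1.94 and 0.630 against 13.0 and 10.2 CPM, a rise of 3.11 ± 0.67 (adjusted p = 0.0329). Of its 50-base windows 4.81% also occur in other transcripts, among them Ctbs on the opposite strand. Ctbs itself had 1.04 and 2.99 CPM in saline and 3.25 and 3.97 in nicotine. Spata7 (ENSMUSG00000021007), a protein of the photoreceptor cilium, had 11.5 and 4.73 CPM in saline and 42.2 and 36.9 in nicotine, its rise being 2.28 ± 0.55 (adjusted p = 0.0348). Spata24, Tex2 and Spata7 had the highest mean RPKM of the group, in this order. Spata24 (ENSMUSG00000024352), a partner of the TATA-binding protein relative Tbpl1 in mouse testis, had 6.10 and 4.10 CPM in saline and 12.2 and 16.7 in nicotine (1.53 ± 0.51, adjusted p = 0.0897). Tex2 (ENSMUSG00000040548), a lipid-binding protein of the endoplasmic reticulum, had 16.7 and 14.0 against 46.3 and 40.0 CPM (1.48 ± 0.47, adjusted p = 0.0742). In both, the groups did not overlap, but 32.5% of the 50-base windows of Spata24 also occur in another annotated transcript entry. The mitotic spindle protein Spag5 had 3.42 and 2.36 against 12.2 and 8.45 CPM (1.78 ± 0.57, adjusted p = 0.0782).

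The remaining 7 had log2 fold changes from -0.58 to 0.66, and each had 10 reads or fewer in nicotine replicate 1 except Spag9. Spata13 (ENSMUSG00000021990) had 55 and 55 reads with saline against 10 and 24 with nicotine, or 8.19 and 8.66 against 8.12 and 4.14 CPM. Its log2 fold change was -0.58 ± 0.56 (adjusted p = 0.577), the most negative of the members. Tex264 (ENSMUSG00000040813), a receptor for the autophagy of endoplasmic reticulum, had 4.32 and 4.10 against 2.43 and 3.62 CPM (-0.38 ± 0.61, adjusted p = 0.756). These 2 were the only tested members below both saline libraries in both nicotine libraries, against 31% of all tested genes. Spata5 (ENSMUSG00000027722), an AAA-type ATPase of ribosome assembly, had 5.51 and 3.94 against 3.25 and 5.17 CPM (-0.07 ± 0.58, adjusted p = 0.953). Tex261 (ENSMUSG00000014748), a membrane protein of the early secretory pathway, had 6.25 and 6.77 against 3.25 and 10.5 CPM (0.23 ± 0.59, adjusted p = 0.853). Spag9, a scaffold of the JNK pathway also called JIP4, had 28.9 and 20.8 against 37.3 and 28.3 CPM (0.39 ± 0.47, adjusted p = 0.669). Spag7 had 0.66 ± 0.64 (adjusted p = 0.577), and Tex10, a protein of ribosome biogenesis, 0.54 ± 0.77 (adjusted p = 0.722) with 39, 17, 1 and 55 reads. A single read in nicotine replicate 1 was worth 0.812 CPM, against 0.149 to 0.172 in the other libraries, so the levels of these genes were hardly resolved there.

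The filter on low counts left 7 members untested. Tex43, a protein inside the microtubules of the sperm tail, had 2 and 2 reads with saline against 4 and 40 with nicotine. It was called higher by DESeq2 (adjusted p = 0.0105) and by edgeR without a filter (adjusted p = 0.0352). The latter tested all 49 members, while DESeq2 gave no adjusted p for Spata32 and Tex22. Spata19, a mitochondrial protein of the midpiece, had 8 and 8 against 4 and 57. In Spata32 the reads were 3 and 4 against 3 and 33. In these 3 genes the reads in nicotine came almost wholly from replicate 2, the library with more reads outside Lars2 and Gm42418. In CPM the nicotine values were 3.25 and 6.90 for Tex43, 3.25 and 9.83 for Spata19 and 2.43 and 5.69 for Spata32. All were above both saline values of their gene, but those of replicate 1 rest on 4, 4 and 3 reads. Tex47 had 3 and 8 against 6 and 21 reads, Tex52 3 and 2 against 9 and 8, Spata31d1b 7 and 8 against 8 and 29, and Tex22 7 and 3 against 4 and 25. Most of these numbers are close to the limit of 3 counts that stands for a count of 0, which equals 0.447, 0.473, 2.43 and 0.517 CPM in the saline and then the nicotine libraries.

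The nicotine libraries differed from each other in a regular way. In scaled CPM, nicotine replicate 1 was above replicate 2 in 31 of the 42 tested members, and in 22 of the 23 that were called, against 3905 of 8375 tested genes. The exception among the called members was Spag17. In the deposited RPKM, which has no correction for the share of reads on Lars2 and Gm42418, replicate 1 was below replicate 2 in 39 of the 42 and in 7946 of the 8375 genes. On that uncorrected scale both nicotine libraries were above both saline libraries for 14 of the 42 members, against 6.99% of all tested genes, and below them for 5, against 64.2%. The 14 included Spata18, Spem2, Spag16, Spag17, Tssk2, Tssk3 and Tssk6, each a called member. The 5 were Spag9, Tex264, Spata5, Spata13 and Tex50.

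Of 38 genes that work with these members, chosen for their known roles, 23 were listed and 22 tested, of which 14 rose and 0 fell (median log2 fold change 2.03, against -0.14 for all genes, of which 8.27% were called higher). They included the central apparatus gene Hydin, which went from 16.4 and 11.7 CPM in saline to 114 and 51.4 in nicotine, a rise of 2.55 ± 0.56 (adjusted p = 0.0329). Tsks, a substrate of the Tssk kinases, went from 25.3 and 23.2 to 135 and 69.5 CPM, a rise of 2.06 ± 0.52 (adjusted p = 0.0371). Both transcription factors whose elements were searched above were among them. Crem rose by 2.95 ± 0.55 (adjusted p = 0.0329), from 5.21 and 5.04 to 55.2 and 26.0 CPM, and Rfx2 by 2.88 ± 0.51 (adjusted p = 0.0329), from 9.53 and 11.5 to 97.4 and 59.2 CPM. The 8 tested partners that did not pass were Tsacc, Hspa8, Hsp90aa1, Ccdc39, Sycp1, Piwil1, Sox30 and Tbpl1. Of the 14 that rose, Dnali1, Syce1 and Ccdc40 were below the filter level in at least 1 saline library but reached it in both nicotine libraries. Their reads were 6 and 8, 7 and 14, and 21 and 7 with saline, against 12 and 55, 17 and 61, and 31 and 68 with nicotine.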

How the data were processed

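Total RNA of cauda spermatozoa was sequenced in 4 libraries, 2 per group, with a kit that the labels' protocols name as a TruSeq DNA kit. The submitters' processing notes name CASAVA, TopHat and build mm8. What program counted reads, on which annotation and strand, and how genes were filtered is not given in the sources used here. Each library's table, as the authors deposited it, holds reads per gene, handled as estimated counts because its last line, which names no gene, has a fraction. That line is the factor that turns reads into RPKM, so it was kept out of totals and tests, and rounding changed no gene. The RPKM values deposited by the authors equalled reads over length times that factor and were used for ranks and levels between genes. A gene name table gave symbols to 8688 of the 8699 listed genes. The members, role groups and lists were chosen with earlier results of these data known.

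Counts were tested with edgeR 4.0.16 (R 4.3.3; quasi-likelihood, TMM, group as the only term, filterByExpr with a minimum count of 10, 8375 genes tested), with Benjamini-Hochberg adjustment over all tested genes. This function was run on simulated data with less spread between libraries (dispersion) than the 0.138 fitted here. That run therefore does not show its error rate on these libraries. TMM factors were 1.68, 1.65, 0.325 and 1.11 in saline replicates 1 and 2 and nicotine replicates 1 and 2. CPM here are reads over the TMM-scaled library size. Standard errors are the log2 fold change over the square root of its F statistic. DESeq2 1.42.0, limma 3.58.1 (voom), other scalings and filters, each library left out and a replicate block were the alternatives. Genes described with all values were up to 3 of highest RPKM per role group, the 10 called with the largest change of constant sign when any library was left out, the 5 most negative and those not tested, with the others chosen after their values were seen. Windows of 50 bases were compared between GENCODE M21 transcripts (GRCm38) on both strands. Coordinates are those of the printed promoter sequences, since the files' build differs.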

Additional observations from a re-analysis of the deposited data

How the results depend on the processing

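The number of members called higher (23 with all libraries) was 0 with library totals, 0 with totals outside Lars2 and Gm42418, and from 0 to 29 with 1 library left out. It was 24 with DESeq2, 23 with limma-voom, 22 with median-of-ratios and 16 with upper-quartile scaling, 20 without a filter and 19 with a mean count of 20 or more. Leaving out either saline library ended every call among the members, while leaving out a nicotine library did not. The median log2 fold change of the 23 called members was 2.66 and 2.52 without saline replicate 1 and 2. It was 1.94 and 2.82 without nicotine replicate 1 and 2. Each of these fits holds 1 library fewer and takes the spread of the lone library from the pair of the other group. The reason for the lost calls was not tested. Of the 49 members, 16 were called in 9 of these 13 alternatives, all but the 2 scalings by totals and the 2 without a saline library. Over all genes, the numbers called higher and lower (693 and 78) were 0 and 9 with library totals, 0 and 0 with totals outside Lars2 and Gm42418 (2521 at an unadjusted p under 0.05), and 0 to 1515 and 9 to 824 with 1 library left out. Limma-voom called 46 lower. The replicate number was added as a block although the labels do not say that it pairs libraries (correlation of the deviations of same-numbered libraries 0.173, over 2 pairs). With this block 28 members were called higher, and 1078 genes higher and 279 lower.

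Of the 42 tested members 8 switched sign in some setting, none of them called, and the cause was not tested. Tex50 (0.03) had -0.12 with upper-quartile scaling, -1.12 with library totals, -0.58 with totals outside Lars2 and Gm42418, -0.0084 without a filter, -0.041 without saline replicate 1, -0.025 without nicotine replicate 2 and up to 0.10 with another library left out. Tex261 (0.23) had -0.75 and -0.36 with these totals and from -0.93 to 0.71 with 1 library left out. Spata5 (-0.07) had 0.067 by limma-voom, 0.14 without saline replicate 1 and from -0.46 to 0.15 with any 1 library left out. Spata13 (-0.58) had 0.017 without nicotine replicate 2 and down to -1.01 with another library left out. Tssk1 (1.24) had -0.017 without nicotine replicate 2 and up to 1.72 with another library left out. Tex10 (0.54), with 1 read in nicotine replicate 1, had -0.37 and -0.023 with these totals and from -2.27 to 1.18 with 1 library left out. Spag7 (0.66) had -0.38 with library totals and from -0.19 to 1.02 with 1 library left out, and Spag9 (0.39) had -0.92 and -0.32 with these totals. Nicotine replicate 1, with the fewest reads outside Lars2 and Gm42418, limits what can be said of members with few reads.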
